A study of Mus musculus with 12 samples.

Results

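RNA polymerase II and Mediator form the core of the machinery that transcribes protein-coding genes, and 43 genes encoding their subunits are described here, of 25442 genes listed in both deposited count tables. They were taken by symbol: protein-coding genes named Polr2 followed by a letter (13 genes) or Med followed by a number, with or without a final l (30 genes), and found by Ensembl identifier in both tables. Polr2a, the gene of the largest polymerase subunit, prompted the choice, because its level had been seen to respond differently to the vector in astrocytes and in microglia. The AAV-A2A against AAV-GFP values of both fractions, and their difference, therefore chose Polr2a, so its values are given as a description with no test. Counts of genes that passed a test refer to the other 42 members. All 43 genes passed the filter on low counts in each of the 5 comparisons, and each member had at least 18 reads in every library.

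RNA polymerase II carries its catalytic centre between its largest subunits, Polr2a and Polr2b, and the repeated tail of Polr2a is phosphorylated as the enzyme leaves a promoter. The small subunits build the assembly platform (Polr2c, Polr2j), the stalk (Polr2d, Polr2g) and the parts held in common with polymerases I and III (Polr2e, Polr2f, Polr2h, Polr2k, Polr2l). Mediator bridges transcription factors and the polymerase: its head and middle contact the enzyme, Med14 runs through the complex as a scaffold, the tail binds activators, and a detachable kinase module (Med12, Med13, their paralogs Med12l and Med13l, cyclin C and Cdk8 or Cdk19) restrains or tunes that contact. Neurons and glia use the same enzyme, and mutations in MED12, MED13L and POLR2A cause neurodevelopmental disorders in humans.

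The promoters of 4 members are shown because the results turn on these genes. Polr2a differed between astrocytes and microglia in opposite directions in AAV-GFP and AAV-A2A. Polr2f and Polr2i were higher in astrocytes, and Med12l had the widest difference in favour of microglia. Each run gives the 250 bases before the RefSeq start, 5′ to 3′ on the strand of the gene (RefSeq, GRCm38.p6). The windows are chr11:69758634-69758883, minus strand, chr15:79141075-79141324, plus strand, chr7:30231824-30232073, plus strand, and chr3:59006728-59006977, plus strand. Capitals mark matches, on either strand, to 6 short motifs. These were the TATA box (TATAAA), the GC box (GGGCGG), the CCAAT box (CCAAT), a core that ETS factors bind (CCGGAAG), the first letters of the cyclic AMP response element (TGACG) and the letters that NRF1 binds (GCATGCGC). No motif contains another.
Polr2a: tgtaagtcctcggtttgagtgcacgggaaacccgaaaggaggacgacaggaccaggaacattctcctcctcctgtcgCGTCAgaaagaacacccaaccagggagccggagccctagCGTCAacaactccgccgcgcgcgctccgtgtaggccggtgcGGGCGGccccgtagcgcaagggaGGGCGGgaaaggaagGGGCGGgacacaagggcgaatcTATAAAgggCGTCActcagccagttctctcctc
Polr2f: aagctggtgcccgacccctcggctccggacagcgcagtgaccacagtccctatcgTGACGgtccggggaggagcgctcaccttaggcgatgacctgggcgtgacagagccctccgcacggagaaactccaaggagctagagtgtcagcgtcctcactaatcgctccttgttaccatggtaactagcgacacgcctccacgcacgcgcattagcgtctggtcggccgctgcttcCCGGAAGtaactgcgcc
Polr2i: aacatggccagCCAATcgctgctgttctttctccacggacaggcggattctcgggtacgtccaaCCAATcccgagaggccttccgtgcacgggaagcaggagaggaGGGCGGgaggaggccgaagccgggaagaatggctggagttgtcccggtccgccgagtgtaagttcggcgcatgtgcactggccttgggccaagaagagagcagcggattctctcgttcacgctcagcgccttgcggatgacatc
Med12l: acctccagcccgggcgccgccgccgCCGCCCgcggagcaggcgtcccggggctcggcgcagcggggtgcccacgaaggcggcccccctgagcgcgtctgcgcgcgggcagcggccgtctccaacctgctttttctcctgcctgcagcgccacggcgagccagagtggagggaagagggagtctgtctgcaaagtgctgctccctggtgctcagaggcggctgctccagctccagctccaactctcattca

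The Polr2a window held TATAAA beginning 33 bases before the start, GGGCGG at 93, 70 and 55 bases before it, and TGACG on the opposite strand at 173, 134 and 24 bases before it. The Polr2f window held neither TATAAA nor GGGCGG, but CCGGAAG 17 bases before the start and TGACG at 195. Polr2i held CCAAT at 239 and 186 bases and GGGCGG at 144. The Med12l window held GGGCGG on the opposite strand, 225 bases before the start, and no other of these motifs. Windows were found for 36 of the 43 members (42 windows, as some genes have several starts), and not for Med8, Med23, Med24, Med30, Polr2d, Polr2g or Polr2k. TATAAA stood in 11.9% of member windows and 12.4% of all 32851 windows, CCAAT in 35.7% and 33.8%, and TGACG in 28.6% and 17.8%. GGGCGG stood in 64.3% of member windows against 32.7% of all windows, including 8 of 8 windows of the large members defined below. CCGGAAG stood in 19.0% against 6.91%, and GCATGCGC in 14.3% against 2.26%. These are letter matches, given without a test.

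All mice were male C57Bl6/J, injected on both sides in the CA1 region at 2 months of age and killed at 4 months. The AAV2/9 vector carried, under the GfaABC1D promoter, which is active mainly in astrocytes, the murine A2A adenosine receptor gene Adora2a (AAV-A2A) or eGFP (AAV-GFP), so that both groups received virus. Hippocampal cells were sorted on beads for ACSA-2, an astrocyte surface antigen, and the eluate was sorted for CD11b, which microglia carry. There were 3 libraries of each vector in each fraction, 12 in all: GFP-303, GFP-306, GFP-307, A2A-309, A2A-310 and A2A-313 from astrocytes, and GFP-2328, GFP-2329, GFP-2331, A2A-2343, A2A-2344 and A2A-2347 from microglia. Values below are listed in that order within a group. The astrocytes were not selected for infected cells, and nothing in the labels ties an astrocyte library to a microglia library of the same animal. Total counts were 33937067 to 49217553 per astrocyte library and 36098295 to 53206974 per microglia library, of which the 43 members took 0.167 to 0.256%. Levels are CPM, counts relative to library size, scaled by the trimmed mean of M values (TMM) over all 12 libraries. Reads had no molecular identifiers, and fewer cells of a type and less RNA per cell cannot be told apart in such samples.

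Adora2a stood at 23.2 to 25.6 CPM in the AAV-GFP astrocyte libraries and at 655 to 926 CPM in AAV-A2A, and at 3.77 to 8.29 and 15 to 45.2 CPM in microglia. The 9 astrocyte markers summed to 23782 to 36737 CPM in astrocyte libraries and 317 to 581 CPM in microglia libraries. Among the latter, GFP-2328, GFP-2329 and A2A-2347 stood apart. Their 8 choroid plexus markers summed to 75295, 62678 and 30395 CPM against 12.2 to 118 CPM in the other microglia libraries. Their 8 microglia markers summed to 7095, 14447 and 20451 CPM, against 49073 to 58759 CPM in the others. None of the choroid plexus markers was at 0 in any group. The 4 erythrocyte markers summed to 889 to 5311 CPM in AAV-GFP and 50.7 to 227 CPM in AAV-A2A microglia, the 5 endothelial markers to 586 to 1516 and 370 to 432 CPM, the 8 neuron markers to 17.2 to 198 and 4.29 to 13 CPM (Gad2 was at 0 in all AAV-A2A microglia libraries), and the 4 ependymal markers to 129 to 261 and 31.4 to 60.8 CPM. In astrocytes, the pair of oligodendrocyte precursor markers summed to 194 to 301 CPM in AAV-GFP and 49.1 to 75.5 CPM in AAV-A2A. That difference lay in Cspg4 (190 to 295 and 44.8 to 71.1 CPM), while Pdgfra overlapped (4.16 to 7.51 and 4.30 to 4.53 CPM). Atp1b2, which encodes the ACSA-2 antigen, was at 1434 to 1879 and 676 to 940 CPM. The part of these cells in the results below was not tested, and results are also given without the choroid-rich libraries.

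Levels of the subunit genes spanned a wide range when divided by exonic length. In astrocytes Polr2d was highest, with a median of 120 CPM per kb of exon over the 6 libraries (109 to 141), followed by Polr2g at 111 (73.2 to 133) and Polr2m at 68.3 (54.5 to 75.6). Polr2d and Polr2g, the stalk subunits, overlapped in range, and the range of Polr2m, an accessory subunit that competes with Mediator for the polymerase, overlapped that of Polr2g but not that of Polr2d. The lowest levels in astrocytes were those of Med13l at 0.529 CPM per kb (0.213 to 0.937), Med12l at 0.537 (0.114 to 0.799) and Med14 at 0.717 (0.180 to 1.48), which overlapped one another. In microglia Polr2m was highest at 90.0 CPM per kb (40 to 167), Polr2g next at 51.3 (23.6 to 57.6), and Med22, a head subunit, at 45.0 (13.1 to 91.0), again overlapping. Med13l was lowest there too, at 1.54 CPM per kb (0.820 to 3.08), beside Med13 at 1.65 (1.13 to 3.82) and Med14 at 1.67 (1.19 to 3.94). Polr2a ranked 27 of 43 in astrocytes and 22 in microglia. Exonic length counts every annotated exon of a gene, so that a gene with long alternative exons has a lower value per kb.

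Polr2a (chr11:69733997-69758637, minus strand, GRCm38) had 157, 90.5 and 104 CPM in AAV-GFP astrocytes, which per kb of exon (22.2, 12.8 and 14.8 CPM per kb) was above every other large member in each library. The AAV-A2A astrocyte libraries had 31.8, 25.7 and 17.4 CPM, so every one of them lay below every control. In microglia the order was the other way round, with 29.1, 42.7 and 55.6 CPM in AAV-GFP and 67.0, 98.4 and 126 CPM in AAV-A2A, again without overlap. The log2 FC of AAV-A2A against AAV-GFP was -2.21 (SE 0.28), a 4.62-fold lower level, in astrocytes and 1.2 (SE 0.38), a 2.30-fold higher level, in microglia. The difference of these effects was -3.43 (SE 0.50). Because these values chose the gene, no test is given. Without the choroid-rich libraries the log2 FC in microglia was 0.55 (SE 0.69), resting on A2A-2343 and A2A-2344 against GFP-2331, and in the choroid-rich libraries alone, A2A-2347 against GFP-2328 and GFP-2329, it was 1.89 (SE 0.34). After removal, library by library, of the trend of counts on exonic length and GC content, the values were -2.04 in astrocytes and 0.72 in microglia.

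Polr2b, the second-largest subunit and partner of Polr2a in the catalytic cleft, did not have this pattern in astrocytes. It had 39.8, 48.0 and 48.2 CPM in AAV-GFP and 32.5, 25.1 and 48.0 CPM in AAV-A2A astrocytes, which overlapped (log2 FC -0.33, SE 0.27, adjusted p = 0.717). In microglia it had 60, 56.8 and 51.1 CPM in AAV-GFP and 79.3, 97.7 and 88.9 CPM in AAV-A2A, without overlap, but the difference did not pass (log2 FC 0.64, SE 0.25, adjusted p = 0.301). The ratio of Polr2a to Polr2b per kb of exon was 2.60, 1.25 and 1.43 in AAV-GFP astrocytes and 0.645, 0.677 and 0.239 in AAV-A2A astrocytes. In microglia it was 0.32, 0.496 and 0.718 in AAV-GFP and 0.558, 0.665 and 0.938 in AAV-A2A. The AAV-GFP astrocytes were thus the only group with more Polr2a than Polr2b per kb in all 3 libraries, whereas the microglia groups overlapped.

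**Figure D1:**
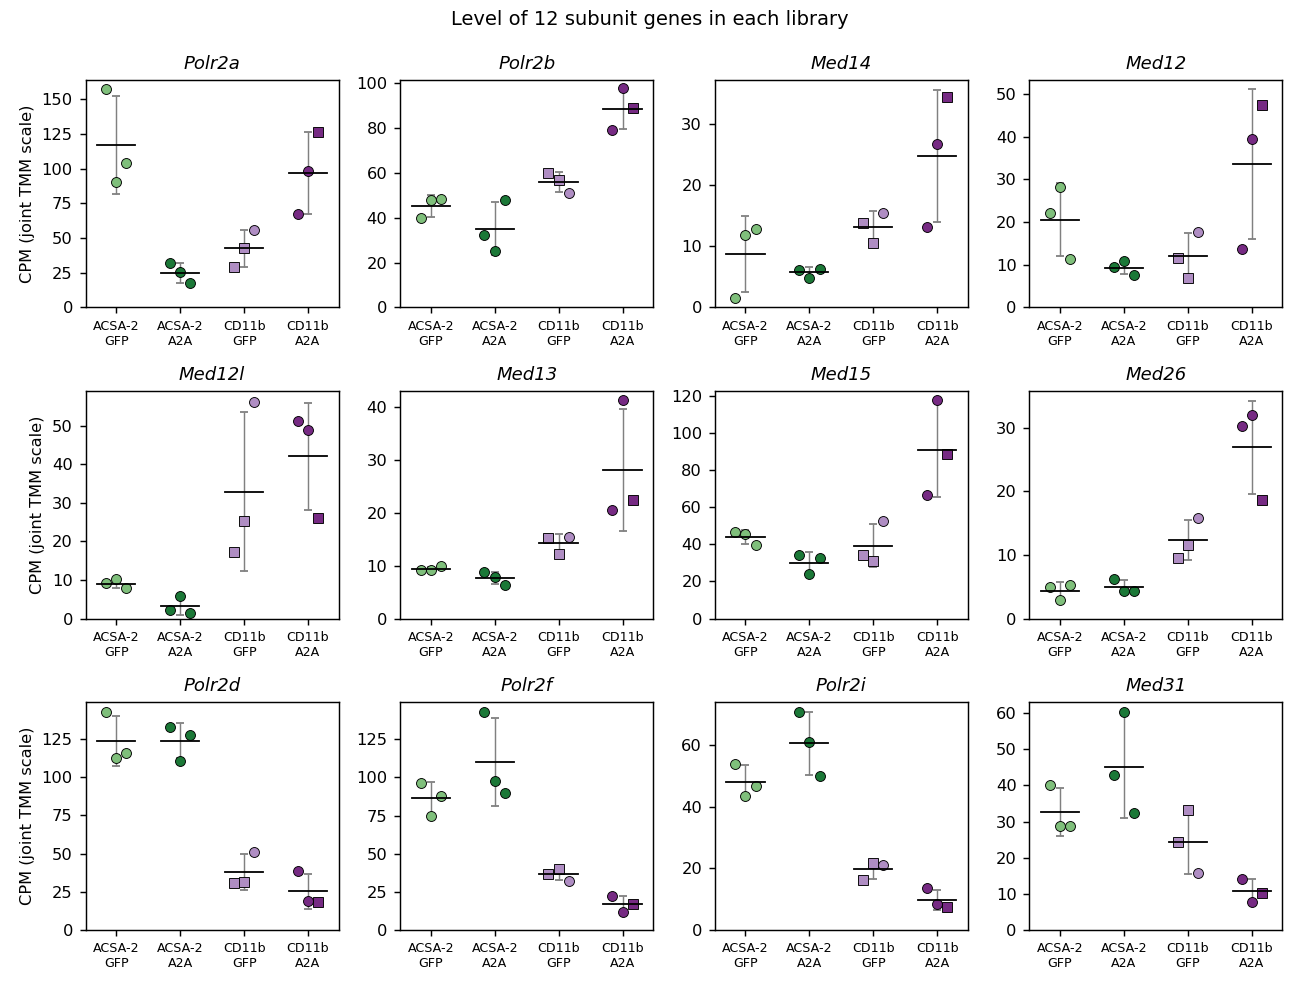
CPM on the joint TMM scale for 12 members in each library, grouped by fraction (ACSA-2, astrocytes; CD11b, microglia) and vector (GFP, A2A); lines are group means, bars are SD (n = 3), and squares mark the choroid-rich libraries. Polr2a was at 17.4 to 31.8 CPM in AAV-A2A astrocytes, below every other group except the lowest AAV-GFP microglia library at 29.1 CPM, while Polr2d, Polr2f and Polr2i separated by fraction whatever the vector.

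Astrocytes and microglia were compared within each vector, and these comparisons did not choose the members. In AAV-GFP animals, 6 of the 42 members were higher in astrocytes (14.3%, against 12.7% of the 16980 genes tested) and 2 were lower (4.76%, against 13.0%), by edgeR's quasi-likelihood test (adjusted p below 0.05, log2 FC beyond 0.32 in either direction). The higher members were Polr2d, Polr2f, Polr2g and Polr2i of the polymerase and Med25 and Med29 of Mediator, and the lower ones were Med12l and Med26. In AAV-A2A animals, which share no library with the first comparison, 17 members were higher in astrocytes (40.5%, against 21.4% of 16658 genes) and 13 were lower (31.0%, against 25.2%). Of the 8 members called in AAV-GFP, 7 were called in AAV-A2A in the same direction, which is 87.5% of the first list and 23.3% of the second. The sign of the difference was the same in both vectors for 35 of 42 members. The fractions were deposited as separate tables, so that fraction and table cannot be told apart.

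The stalk subunit Polr2d had 143, 113 and 116 CPM in AAV-GFP and 133, 111 and 128 CPM in AAV-A2A astrocytes. Its microglia values were 30.6, 31.1 and 51.3 CPM in AAV-GFP and 38.5, 18.8 and 18.2 CPM in AAV-A2A, all below the astrocyte libraries. The log2 FC of astrocytes against microglia was 1.72 (SE 0.29, adjusted p = 0.00852) in AAV-GFP and 2.36 (SE 0.38, adjusted p = 0.00192) in AAV-A2A. Its stalk partner Polr2g had 124, 142 and 91.2 CPM in AAV-GFP and 143, 166 and 135 CPM in AAV-A2A astrocytes. Microglia had 63.5, 71.8 and 67.6 CPM of Polr2g in AAV-GFP and 64.5, 29.4 and 35.3 CPM in AAV-A2A. The difference was smaller than for Polr2d, with a log2 FC of 0.82 (SE 0.25, adjusted p = 0.0491) in AAV-GFP and 1.83 (SE 0.37, adjusted p = 0.00497) in AAV-A2A. Polr2d was called with any single library left out in both vectors, while the Polr2g call in AAV-GFP held in 1 of 6 such fits.

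Polr2f, which helps hold the polymerase clamp and is common to polymerases I, II and III, had 96.2, 74.8 and 87.8 CPM in AAV-GFP and 143, 97.6 and 89.9 CPM in AAV-A2A astrocytes. In microglia it had 36.8, 39.9 and 32.3 CPM in AAV-GFP and 21.9, 11.7 and 16.6 CPM in AAV-A2A, so that the fractions did not overlap. Its log2 FC was 1.25 (SE 0.23, adjusted p = 0.0104) in AAV-GFP and 2.77 (SE 0.36, adjusted p = 8.14e-04) in AAV-A2A, the largest of all members in favour of astrocytes. Polr2i, a subunit with a role in transcript cleavage and fidelity, had 53.9, 43.6 and 46.8 CPM in AAV-GFP and 70.6, 60.9 and 50.1 CPM in AAV-A2A astrocytes. Its microglia values were 16.2, 21.7 and 21.0 CPM in AAV-GFP and 13.5, 8.46 and 7.32 CPM in AAV-A2A. The log2 FC was 1.29 (SE 0.25, adjusted p = 0.0130) and 2.68 (SE 0.37, adjusted p = 9.72e-04). Of its exon bases, 26.8% lie in exons of Tbcb on the opposite strand, where reads could not be assigned with certainty. Without the choroid-rich libraries, which leaves GFP-2331 as the only AAV-GFP microglia library, the log2 FC of Polr2d, Polr2f and Polr2i in AAV-GFP was 1.24, 1.39 and 1.17.

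Of the remaining small polymerase subunits, Polr2h, Polr2j, Polr2c and Polr2l were higher in AAV-A2A astrocytes than microglia (log2 FC 1.93, 1.86, 1.27 and 1.46). In AAV-GFP they did not pass, at 0.95, 0.83, 0.43 and 0.38 (adjusted p = 0.0737, 0.0559, 0.310 and 0.534). Polr2e and Polr2k had positive values that did not pass (0.85 and 1.97 in AAV-A2A). Polr2k had the lowest level per kb of the polymerase genes, with medians of 3.72 CPM per kb in astrocytes and 1.88 in microglia. Polr2m was the exception, with a log2 FC of -0.84 (adjusted p = 0.176) in AAV-GFP and 0.05 (adjusted p = 0.936) in AAV-A2A. Its microglia values were 405, 300 and 136 CPM in AAV-GFP and 119, 97.0 and 302 CPM in AAV-A2A, against 132 to 183 CPM in astrocytes. The 3 choroid-rich libraries were the ones at 300 CPM or above. In all, 8 of the 11 small polymerase members were higher in AAV-A2A astrocytes and none was lower, where 21.4% of all genes were higher and 25.2% lower. Short genes as a whole were shifted the same way. The median log2 FC of these 11 was 1.86, beside 1.69 for all protein-coding genes under 150 residues and 0.95 from 150 to 250. Polr2c and Polr2l were called in 1 of 6 fits without a library. With the length and GC trend removed, only Polr2c, Polr2f and Polr2i of the 8 kept their calls. Polr2b, in contrast, was lower in AAV-A2A astrocytes (log2 FC -1.27, SE 0.33, adjusted p = 0.0143) and did not pass in AAV-GFP (log2 FC -0.30, adjusted p = 0.340). Polr2a had a log2 FC of 1.47 (SE 0.34) in AAV-GFP and -1.91 (SE 0.36) in AAV-A2A between the fractions, given without a test because they rest on the libraries that chose it.

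Among the Mediator head genes, 5 of 12 were higher in AAV-A2A astrocytes than microglia and 1, Med22, was lower (log2 FC -1.46), beside 21.4% and 25.2% of all genes. The higher ones were Med29 (1.90), Med28 (1.69), Med30 (1.62), Med6 (1.25) and Med19 (0.89). The 5 became 2 when A2A-2344 was left out (Med28 and Med29) and 3 when A2A-309, A2A-310 or A2A-313 was, and Med6 was called in 2 and Med19 in 1 of the 6 fits without a library. Med29 was also the head gene called in AAV-GFP: it had 31.6, 21.5 and 22.5 CPM in AAV-GFP astrocytes and 11.1, 11.8 and 10.8 CPM in AAV-GFP microglia (log2 FC 1.16, SE 0.30, adjusted p = 0.0290). Its AAV-A2A values were 23.5, 25.0 and 19.0 CPM in astrocytes and 8.03, 4.82 and 5.88 CPM in microglia. That the AAV-GFP call held in 1 of 6 fits with a library left out limits it. Med22 ranged widely in microglia, from 47.2 and 59.3 CPM in the choroid-rich AAV-GFP libraries to 329 CPM in A2A-2344.

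In the middle of Mediator, Med31, Med21, Med9 and Med10 were higher in AAV-A2A astrocytes, and Med26 and Med1 were lower. Thus 4 and 2 of the 8 middle genes were called, beside 21.4% and 25.2% of all genes, so the lower share was that of all genes. Med1 was called in 4 of the 6 fits without a library. Med31 had 42.8, 60.5 and 32.3 CPM in AAV-A2A astrocytes against 14.2, 7.57 and 10.3 CPM in AAV-A2A microglia (log2 FC 2.13, SE 0.40, adjusted p = 0.00351). Its AAV-GFP values, 40.2, 28.9 and 28.8 CPM in astrocytes and 24.2, 33.3 and 15.6 CPM in microglia, overlapped (log2 FC 0.42, adjusted p = 0.405). Med26, a subunit found on the form of Mediator that holds the polymerase and that binds elongation factors, was at 5, 2.87 and 5.33 CPM in AAV-GFP and 6.29, 4.30 and 4.28 CPM in AAV-A2A astrocytes. It was at 9.61, 11.6 and 15.9 CPM in AAV-GFP and 30.3, 32.0 and 18.6 CPM in AAV-A2A microglia. Its log2 FC was -1.49 (SE 0.43, adjusted p = 0.0427) in AAV-GFP and -2.39 (SE 0.41, adjusted p = 0.00252) in AAV-A2A. The AAV-GFP call of Med26 was lost with any single library left out. Med10 shares 92.8% of its exon bases with a long noncoding RNA on the opposite strand, so its counts are uncertain.

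Med14, the scaffold on which head, middle and tail are joined, had 1.58, 11.8 and 12.9 CPM in AAV-GFP astrocytes and 6.21, 4.87 and 6.36 CPM in AAV-A2A astrocytes. One control library, GFP-303, was far below the other two. In microglia it had 13.9, 10.5 and 15.4 CPM in AAV-GFP and 13.2, 26.8 and 34.5 CPM in AAV-A2A. Astrocytes were lower than microglia in AAV-A2A (log2 FC -2.03, SE 0.46, adjusted p = 0.00794) and did not pass in AAV-GFP (log2 FC -0.60, SE 0.72, adjusted p = 0.567). In the tail, which receives activators, Med16 (log2 FC -1.79), Med23 (-1.68), Med24 (-1.58) and Med15 (-1.53) were lower in AAV-A2A astrocytes, 4 of the 5 tail genes where 25.2% of all genes were. Med25 went the other way. It was at 189, 220 and 241 CPM in AAV-GFP and 130, 77.1 and 130 CPM in AAV-A2A astrocytes, and at 90.4, 85.2 and 61.6 CPM in AAV-GFP and 56.6, 65.3 and 76.9 CPM in AAV-A2A microglia. Its log2 FC between the fractions was 1.45 (SE 0.26, adjusted p = 0.00924) in AAV-GFP and 0.82 (SE 0.32, adjusted p = 0.0648) in AAV-A2A, which made it the member called in AAV-GFP and not in AAV-A2A.

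All 4 genes of the kinase module, which docks on Mediator through Med13 and is activated by Med12, were lower in AAV-A2A astrocytes than in AAV-A2A microglia, as were 44.3% of all protein-coding genes of at least 1000 residues. Without A2A-313 only Med12l and Med13 of the 4 were called. Med12l had the widest difference of all members. It was at 9.16, 10.2 and 7.95 CPM in AAV-GFP and 2.35, 5.76 and 1.45 CPM in AAV-A2A astrocytes, and at 17.3, 25.3 and 56.3 CPM in AAV-GFP and 51.2, 48.9 and 26.2 CPM in AAV-A2A microglia. The log2 FC was -1.86 (SE 0.48, adjusted p = 0.0312) in AAV-GFP and -3.67 (SE 0.61, adjusted p = 0.00206) in AAV-A2A, and -2.66 in AAV-GFP with GFP-2331 as the single microglia library. The choroid-rich libraries had 17.3 to 26.2 CPM against 48.9 to 56.3 CPM in the other microglia libraries. The long introns of Med12l hold P2ry12, a microglial receptor gene on the opposite strand, whose level was 24.7 to 34.1 CPM in astrocytes and 990 to 7422 CPM in microglia. The exons of these genes share 9 bases, and 1948 exon bases of Med12l lie in exons of Igsf10, also on the opposite strand.

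Med12 had 22.1, 28.2 and 11.3 CPM in AAV-GFP and 9.57, 10.8 and 7.62 CPM in AAV-A2A astrocytes. In microglia it had 11.6, 6.79 and 17.7 CPM in AAV-GFP and 13.8, 39.5 and 47.4 CPM in AAV-A2A, a spread in which A2A-2343 lay among the controls. The log2 FC between the fractions was 0.78 (adjusted p = 0.281) in AAV-GFP and -1.79 (SE 0.49, adjusted p = 0.0183) in AAV-A2A. The ratio of Med12 to Med12l per kb of exon was 2.36 to 8.68 in astrocytes and 0.445 to 2.99 in microglia, with A2A-2347 the microglia library that overlapped. For Med13, which had 9.13, 9.19 and 9.92 CPM in AAV-GFP and 8.75, 7.91 and 6.45 CPM in AAV-A2A astrocytes, microglia had 15.2, 12.3 and 15.4 CPM in AAV-GFP and 20.5, 41.4 and 22.5 CPM in AAV-A2A. Its log2 FC was -0.60 (adjusted p = 0.187) and -1.81 (SE 0.41, adjusted p = 0.00840). Med13l had 3.29, 14.5 and 9.18 CPM in AAV-GFP and 6.10, 14.2 and 7.14 CPM in AAV-A2A astrocytes, against 12.6, 14.5 and 27.5 CPM and 20.0, 46.9 and 47.5 CPM in microglia. Its log2 FC was -1.02 (adjusted p = 0.245) and -2.0 (SE 0.50, adjusted p = 0.0121). The ratio of Med13 to Med13l per kb, 0.674 to 3.95, did not separate the fractions.

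The AAV-GFP counts depended on single libraries. The 8 called members fell to 4 when GFP-303, GFP-306 or GFP-2329 was left out and to 5 when GFP-2328 was. They fell to 1 when GFP-307 was left out and increased to 14 when GFP-2331 was. Over all genes, the full fit called 2162 higher and 2215 lower of 16980. These fits changed that as well, to 1036 and 1162 of 17987 without GFP-307. Without GFP-2331 it was 2861 and 2975 of 18005. Polr2d was called in 6 of 6 of these fits, Polr2f, Polr2i and Med25 in 5, Med12l in 2, Polr2g and Med29 in 1 and Med26 in none. In AAV-A2A the count stayed between 22 and 34. It was 22 without A2A-309, where 2588 of 17426 genes were higher and 3354 lower. It was 34 without A2A-2343, where 3452 of 17755 genes were higher and 4101 lower. Without the choroid-rich libraries, 27 were called in AAV-A2A (26 of the 30), beside 4146 higher and 4298 lower of 17521 genes. In AAV-GFP that fit assumes that GFP-2331, the only AAV-GFP microglia library left, varies like the other groups. Only effect sizes are therefore given for it, for Polr2d, Polr2f, Polr2i and Med12l above.

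The vectors were then compared within each fraction for the 42 members other than Polr2a. In astrocytes none passed edgeR's test (553 of 16451 genes, 3.36%, did). Of the 42 members 7 had an unadjusted p under 0.05, as did 2141 of all genes (13.0%). DESeq2 called 3 members (277 genes higher and 1000 lower of 27633) and limma-voom 2 (31 and 568 of 16451). In edgeR the lowest adjusted p values belonged to tail genes. Med25 had a log2 FC of -0.92 (SE 0.23, adjusted p = 0.0692), on the values given above, which did not overlap. Med23, which links Mediator to growth factor signalling, had 36.6, 27.9 and 39.8 CPM in AAV-GFP and 4.81, 17.2 and 9.96 CPM in AAV-A2A (log2 FC -1.67, SE 0.42, adjusted p = 0.0718). DESeq2, limma-voom and the fits of edgeR without a filter, or with at least 10 counts in every library, called both, and DESeq2 also called Med18 (log2 FC -0.99). Leaving out A2A-310 also gave a call for Med23 (adjusted p = 0.0399). Med12l and Med12 had log2 FC of -1.49 (SE 0.54, adjusted p = 0.245) and -1.12 (SE 0.37, adjusted p = 0.194). All AAV-A2A libraries lay below all controls for 7 members, Med12, Med12l, Med13, Med15, Med18, Med23 and Med25 (16.7%, against 11.5% of genes), and above them for 1, Med20 (2.38%, against 7.84%). Of the 11 small polymerase members, 10 had a positive log2 FC, none above 0.49, and 6 did with the length and GC trend removed. The median of all protein-coding genes was 0.14 under 150 residues and 0.11 from 150 to 250.

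In microglia edgeR called none of the 42 members and no gene at all (0% of 16949, with 2704 genes at an unadjusted p under 0.05), and 13 members had an unadjusted p under 0.05. DESeq2 called 264 genes as higher and 238 as lower and limma-voom none, and neither called a member. All 9 large members had a positive log2 FC, from 0.33 for Med12l to 1.5 for Med12 (SE 0.58, adjusted p = 0.297). So did 1523 of the 2029 protein-coding genes of at least 1000 residues tested. All 11 small polymerase members had a negative one, from -0.57 to -1.29. The median of all protein-coding genes was -0.89 under 150 residues and -0.50 from 150 to 250. Of the 22 small Mediator members, 7 were positive and 15 negative. With the length and GC trend removed the 9 large members stayed positive, but 5 of the 11 small polymerase members turned positive as well. All AAV-A2A libraries lay above all controls for 6 members, Med1, Med13, Med15, Med16, Med26 and Polr2b (14.3%, against 12.0% of genes), and below them for 7, Med9, Med21, Med29, Med31, Polr2f, Polr2i and Polr2k (16.7%, against 10.6%). The log2 FC of Med14, Med13 and Med13l was 0.91, 0.94 and 1.07, with adjusted p of 0.367, 0.295 and 0.333. Without the choroid-rich libraries no member was called and none had an unadjusted p under 0.05. In those libraries alone, A2A-2347 is the single AAV-A2A library, so only effect sizes are given. The log2 FC was 2.44 for Med12, 1.88 for Med13l, 1.60 for Med22, 1.58 for Med14, 1.52 for Med15 and -1.58 for Med21.

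The test of the difference between the vector effects in astrocytes and microglia called none of the 42 members in edgeR (75 of 18602 genes, 0.403%, were called). Of the members 14 had an unadjusted p under 0.05, as did 3645 of all genes (19.6%). DESeq2 called 7, limma-voom none, and limma-voom with sample quality weights 17. Over all genes, DESeq2 called 728 higher and 1012 lower of 25183, and limma-voom with weights 1229 and 1838 of 18602. Med15, a tail subunit that binds activators, came nearest, with 46.6, 45.8 and 39.4 CPM in AAV-GFP and 34.2, 23.8 and 32.6 CPM in AAV-A2A astrocytes. In microglia it had 34.3, 30.8 and 52.5 CPM in AAV-GFP and 66.7, 118 and 88.6 CPM in AAV-A2A. The vector effect was thus opposite in every library of the 2 fractions, with a difference of -1.76 (SE 0.41, adjusted p = 0.0700). The differences for the 9 large members other than Polr2a were all negative, from -0.74 for Med1 to -2.62 for Med12 (SE 0.72, adjusted p = 0.0987). Of the 2093 protein-coding genes of at least 1000 residues tested, 1568 were negative too. The differences for all 11 small polymerase members were positive, from 0.49 to 1.56. The median of all protein-coding genes was 1.05 under 150 residues and 0.62 from 150 to 250. The 22 small Mediator members had 14 positive and 8 negative differences. With the length and GC trend removed the 9 remained negative and 6 of the 11 positive. Leaving out single microglia libraries changed the edgeR calls. Without A2A-2343, 7 members were called (Med12, Med15, Med23, Med30, Polr2f, Polr2g and Polr2i), beside 186 genes higher and 644 lower of 19514. Without GFP-2331, 5 were (Med12, Med15, Med22, Med31 and Polr2f), beside 359 genes higher and 927 lower of 19454. Calls over all genes thus rose as well.

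**Figure D2:**
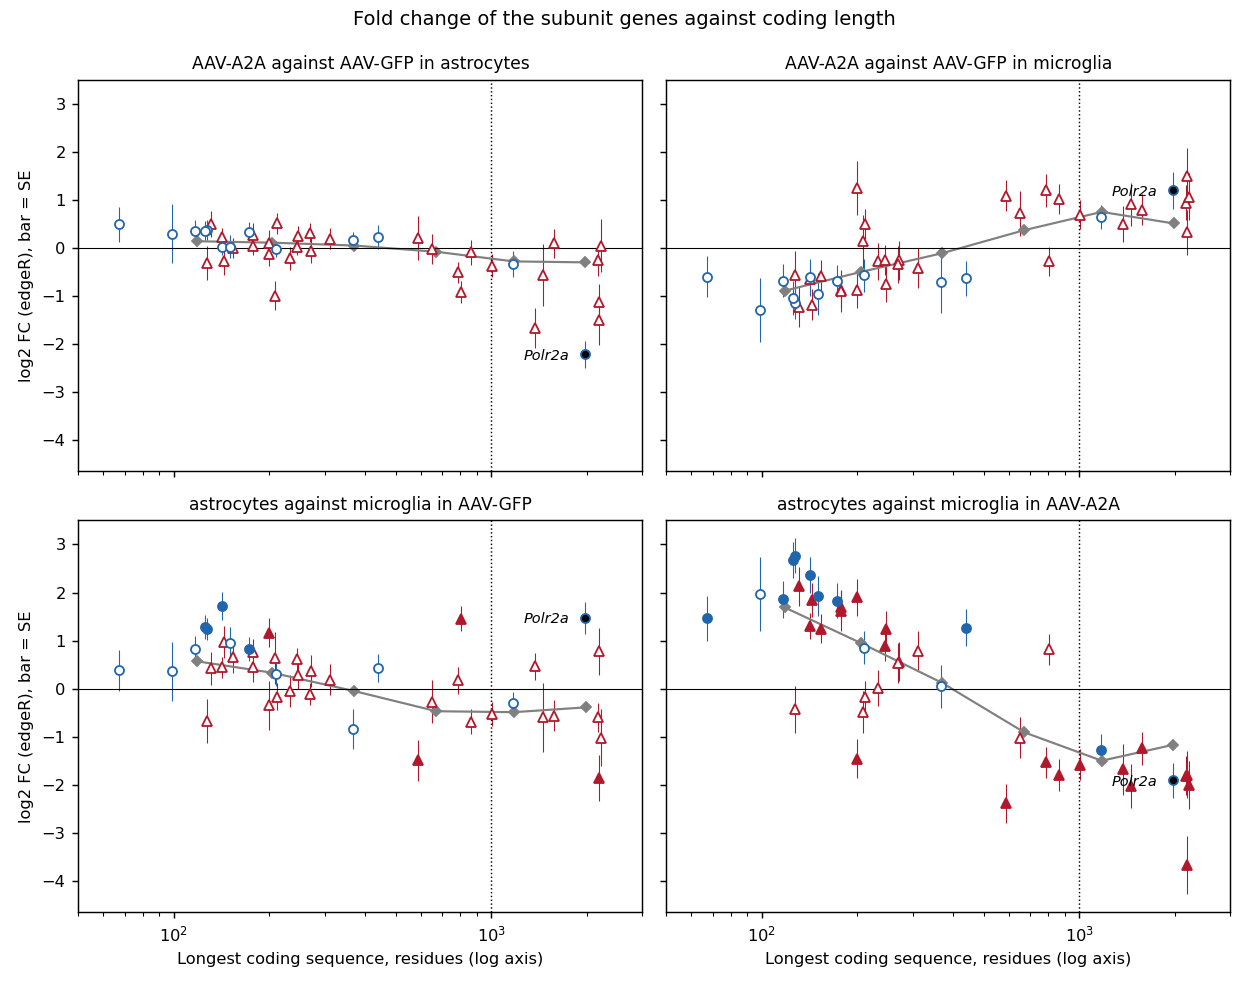
Fitted log2 FC (vertical axis, bars are SE) of the 43 members against the length of their longest coding sequence in residues (horizontal log axis) in 4 comparisons; blue circles are polymerase and red triangles Mediator genes, filled where edgeR called them, and the black symbol is Polr2a, which was not tested. Grey diamonds are medians of all tested protein-coding genes in 6 bins of length, and the dotted line stands at 1000 residues: in AAV-A2A the medians ran from 1.69 in the shortest bin to -1.17 in the longest.

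The members were then split by size. The 10 with a longest coding sequence of at least 1000 residues, Polr2a, Polr2b, Med1, Med12, Med12l, Med13, Med13l, Med14, Med23 and Med24, were called large and the other 33 small. Med24, with 1006 residues, lay just inside this limit and Med16, with 865, just outside. Between the fractions in AAV-A2A, all 9 large members other than Polr2a were lower in astrocytes, and of the small members 17 were higher and 4 lower. Of all protein-coding genes of that size tested, 44.3% of the large were lower and 6.49% higher, and 25.3% of the small were lower and 23.4% higher. Of the 9 large members, 5 were called without A2A-313 (Med12l, Med13, Med14, Med24 and Polr2b) and 6 without A2A-309, and 7 to 9 without another library. In AAV-GFP, 1 of the 9 large members was lower and none higher, and 6 of the 33 small members were higher and 1 lower. Of all protein-coding genes there, 16.7% of the large were lower and 10.8% higher, and 13.5% of the small were lower and 13.9% higher. The median log2 FC of the large minus that of the small members was -0.96 in AAV-GFP and -3.05 in AAV-A2A, with no test since genes are not replicates. Polr2a is among the large members here, and without it the values were -0.98 and -3.03. The same difference between large and small genes among all protein-coding genes tested was -0.35 and -1.30. Within the small class 23 of the 33 members code for fewer than 250 residues, so the members' lengths are not those of all genes. In AAV-A2A the median log2 FC of all protein-coding genes was 1.69 under 150 residues and 0.95 from 150 to 250, and -1.50 from 1000 to 1500 and -1.17 above.

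For the vector comparisons, the large minus small median was -0.58 in astrocytes and 1.46 in microglia, against -0.33 and 0.71 for all protein-coding genes. These medians count Polr2a, which the vector values chose, among the large members. Without Polr2a they were -0.48 and 1.40, and the other member medians of this paragraph keep it. The astrocyte value rested on the controls, and was -0.34 when GFP-306 was left out, -0.36 when GFP-307 was and -0.98 when GFP-303 was. Microglia gave 1.05 without the choroid-rich libraries and 1.79 in those alone. When each library's trend on exonic length and GC content was removed over all genes, the members' value became -0.41 in astrocytes and 0.45 in microglia, and -0.52 in AAV-GFP and -1.32 in AAV-A2A between the fractions. The corresponding values for all protein-coding genes were -0.12, 0.25, -0.17 and -0.46. With the trend removed, 4 members were called in AAV-GFP (Polr2f, Med25 and Med26 as before, and Med21). Of all 16965 genes tested there, 2053 were called higher and 2105 lower. In AAV-A2A 18 members were called, 8 higher and 10 lower, 15 of them among the 30 called before. Of all 16645 genes tested there, 2841 were higher and 3904 lower, so the members' shares lay near those of all genes. Polr2f and Polr2i remained higher, and Med12l, Med13, Med14, Med15, Med16, Med26 and Polr2b lower, in AAV-A2A astrocytes, while Polr2d, Polr2g, Med12 and Med13l lost their calls.

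**Figure D3:**
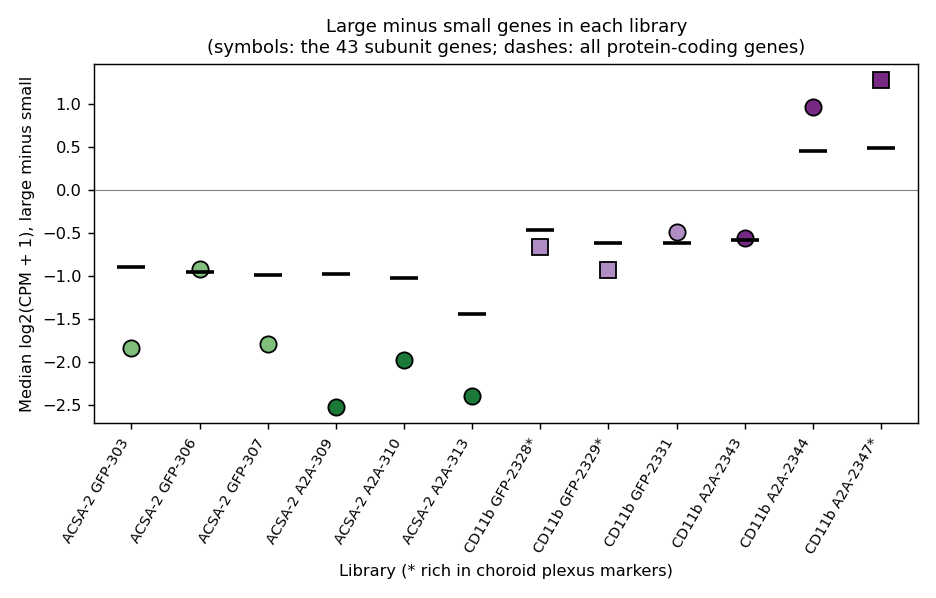
Median log2(CPM + 1) of the large minus that of the small genes in each library, for the 43 members (symbols) and for 10199 protein-coding genes at 1 CPM or more in every library (dashes); squares and asterisks mark choroid-rich libraries. Members ran from -2.52 to -0.92 in astrocytes, and A2A-2344 and A2A-2347 stood alone above 0, at 0.97 and 1.28.

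In single libraries, where only differences between libraries can be read, the large minus small value of the members was -1.83, -0.92 and -1.79 in AAV-GFP and -2.52, -1.97 and -2.39 in AAV-A2A astrocytes. These did not overlap, but without Polr2a they did, at -2.42, -1.37 and -1.80 against -2.58, -2.13 and -2.57. In microglia it was -0.66, -0.93 and -0.49 in AAV-GFP and -0.56, 0.97 and 1.28 in AAV-A2A. A2A-2343 thus lay with the AAV-GFP microglia, apart from the other libraries of its own group. For 10199 protein-coding genes the values moved alongside, at -0.46, -0.61 and -0.61 in AAV-GFP microglia and -0.58, 0.46 and 0.49 in AAV-A2A microglia. In astrocytes they were -0.89, -0.95 and -0.99 in AAV-GFP and -0.98, -1.02 and -1.44 in AAV-A2A. The part of this shift of long against short genes in the subunit values was not tested beyond the fit with the trend removed.

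**Figure D4:**
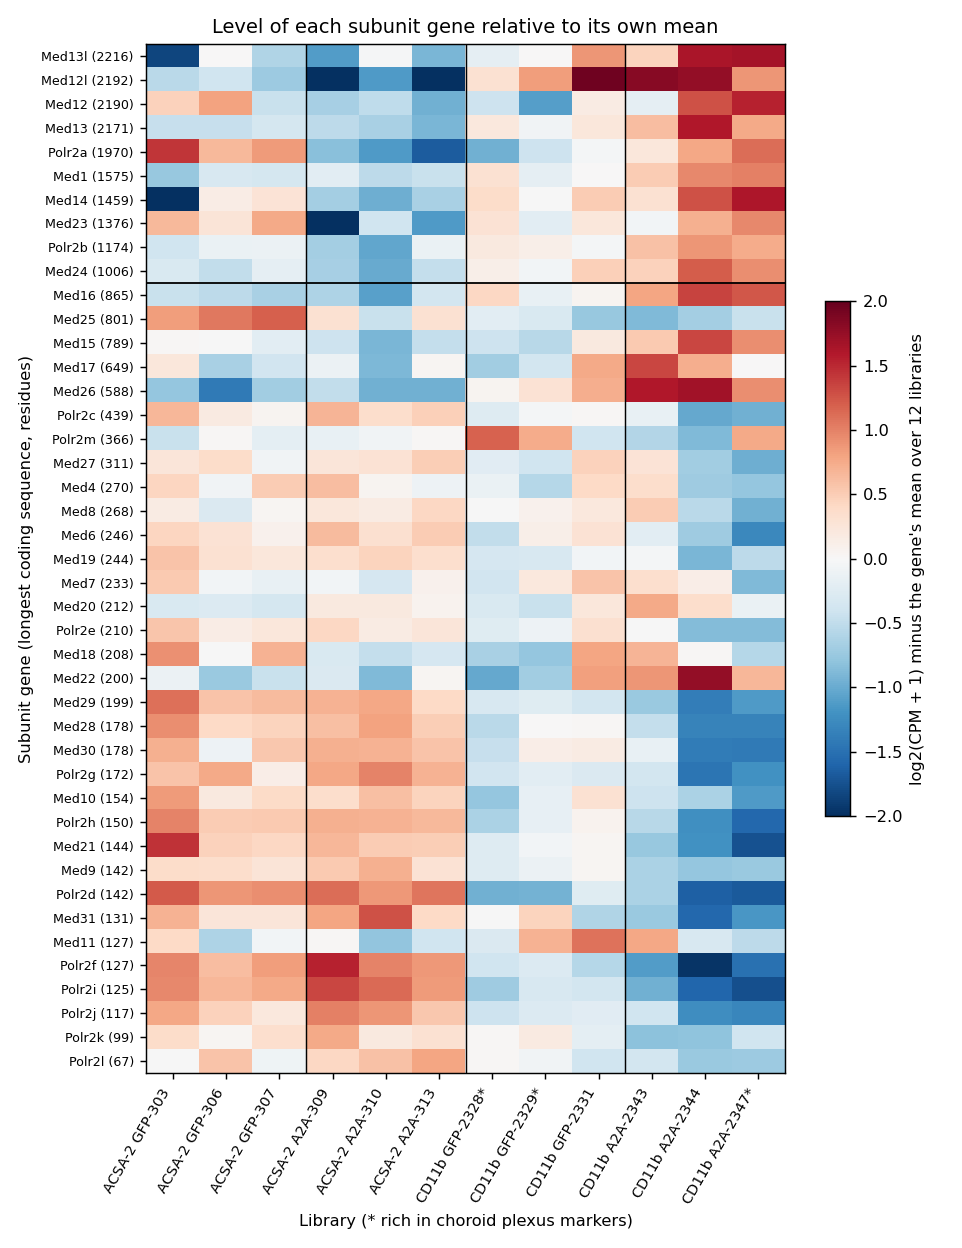
Level of each member, log2(CPM + 1) minus the gene's own mean over the 12 libraries, with members (rows) ordered by coding length and libraries (columns) by fraction and vector; the horizontal line separates large from small members. In A2A-2344 and A2A-2347, long members were above their means and most short ones below, Polr2a was above its mean in the 3 AAV-GFP astrocyte libraries, and Med25 was above its mean there as well.

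Other genes of the transcription machinery were counted from lists chosen by function. In astrocytes, AAV-A2A was lower than AAV-GFP for 2 of 20 pausing and elongation genes. It was also lower for 1 of 9 genes for assembly of the polymerase or dephosphorylation of its tail. No other gene of the lists was called, and 3.19% of all genes were lower. Aff1, a scaffold of the super elongation complex, had 33.9, 53.9 and 54.7 CPM in AAV-GFP and 11.9, 6.80 and 8.05 CPM in AAV-A2A (log2 FC -2.39, SE 0.31, adjusted p = 0.00362). Cdk13, a kinase of the polymerase tail, had 75.6, 75.6 and 138 CPM in AAV-GFP and 47.7, 25.8 and 35.2 CPM in AAV-A2A (log2 FC -1.38, SE 0.31, adjusted p = 0.0411). Rprd1b, which binds that tail, had 43.2, 57.0 and 55.2 CPM in AAV-GFP and 19.0, 20.2 and 24.4 CPM in AAV-A2A (log2 FC -1.26, SE 0.23, adjusted p = 0.0153). Aff1 and Rprd1b also passed the test of the difference between fractions, at -2.78 (SE 0.50, adjusted p = 0.0450) and -1.82 (SE 0.31, adjusted p = 0.0438). Rprd1b codes for 326 residues. The median log2 FC of the 20 elongation genes was 0.09 and that of all genes 0.02.

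None of 30 tested initiation factor genes, 15 polymerase I and III genes or 3 genes of the kinase partners (Cdk8, Cdk19, Ccnc) passed in astrocytes, and none of the lists held a called gene in microglia. Between the fractions in AAV-A2A, initiation factors had 8 higher and 6 lower in astrocytes, and elongation genes 2 and 6. The 9 genes for polymerase assembly or tail dephosphorylation had 2 and 3, and polymerase I and III genes 2 and 6. Of all genes, 21.4% were higher and 25.2% lower. The largest subunits of the sister polymerases, Polr1a and Polr3a, were lower in AAV-A2A astrocytes (log2 FC -2.59, adjusted p = 0.00933, and -2.18, adjusted p = 0.00761), and so were their partners Polr1b (-2.61) and Polr3b (-1.70). Polr1a was also lower in AAV-GFP astrocytes (log2 FC -2.48, adjusted p = 0.0100). Of the 3 kinase partners, 1 was called between the fractions in AAV-A2A. This was Cdk19, which was lower in astrocytes (log2 FC -2.39, SE 0.44, adjusted p = 0.00321). Of the 3 log2 FC values, 2 were negative and 1 was positive, at 0.46.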

How the data were processed

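RNA was measured in 12 libraries of 4 groups, taken from the sample labels alone. Per the labels and the study's methods, full-length cDNA was made with a kit that does not mark strand, reads were trimmed with cutadapt 1.10, aligned to mm10 with STAR 2.5.3, and counted with HTSeq 0.6.1p1 if unique and unambiguous, versions being those in the submitters' processing notes. The strand setting is not given in the sources used here. The authors deposited the raw counts per Ensembl gene in a table for each fraction. The 25 columns with no sample name were empty and not used.

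Counts were tested with edgeR 4.0.16 (quasi-likelihood, TMM, filterByExpr, robust) in R 4.3.3, with Benjamini-Hochberg adjustment over all genes tested and the limits the study used, 0.05 on the adjusted p and 0.32 on the absolute log2 FC. DESeq2 1.42.0, limma 3.58.1 (voom), RLE and upper-quartile scaling, no filter or a stricter one, a spline trend on length and GC content (5 degrees of freedom), joint fits and fits without single libraries were alternatives, and those on choroid-rich libraries (Ttr over 1000 CPM) were added after seeing the data. Each fit was tested on simulated counts. The members and gene lists were chosen with earlier results of these data known. Positions, lengths and residues are from GENCODE M21 (GRCm38). The size limit had been planned on RefSeq proteins, and the longest GENCODE coding sequence was used in their place. Values in every library are given for Polr2a, Polr2b, Med14, the kinase module, the other members called (where over 8 were called, the 4 largest rises and falls with a mean of at least 5 CPM) and the extremes per length, and Med15, Med22 and Med23 were added after their values were seen. Intervals and p values cover the spread between 3 libraries, whose separate animals the labels name by number only. No 2 libraries of a group agreed within sampling noise (chi-square per degree of freedom 51.8 or more).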

Additional observations from a re-analysis of the deposited data

Results flagged for a closer look

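Of the 42 members other than Polr2a, Med13 and Med15 had every AAV-A2A library below every AAV-GFP library in astrocytes and above in microglia. Among the 18602 genes tested, 1.86% had this pattern. Of the genes tested in each fraction, 11.5% lay below in astrocytes and 12.0% above in microglia. Polr2a had the pattern too, but it was chosen for it and is not set against these shares. The vector effect in astrocytes minus that in microglia was -3.43 for Polr2a, which was chosen for this pattern and was not tested, -1.76 for Med15 (adjusted p = 0.0700) and -1.27 for Med13 (adjusted p = 0.166). Without the choroid-rich libraries, the difference was -2.81 for Polr2a. That fit rests on GFP-2331 as the only AAV-GFP microglia library, so only this effect size is given.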

How the results depend on the processing

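No paired analysis was possible because the groups share no replicate number and the labels do not tie the libraries to common animals. In astrocytes, where edgeR called none of the 42 members between the vectors, DESeq2 called 3, and limma-voom, edgeR without a filter and edgeR with at least 10 counts in every library called 2 each. Leaving out 1 library gave 0 to 1. In microglia the choroid-rich libraries alone, chosen after seeing the data, gave 6 calls instead of 0, resting on A2A-2347 as the single AAV-A2A library against GFP-2328 and GFP-2329. Between the fractions, removal of the length and GC trend left 4 calls instead of 8 in AAV-GFP. Over all genes it left 2053 higher and 2105 lower there, from 2162 and 2215. In AAV-A2A it left 18 calls instead of 30, and over all genes 2841 higher and 3904 lower, from 3562 and 4193. Leaving out 1 library gave 1 to 14 in AAV-GFP, where calls over all genes changed too, as given above. For the difference between the vector effects, with no call in edgeR, DESeq2 called 7, limma-voom with sample quality weights 17, edgeR with at least 10 counts in every library 1 (Med15), and fits without 1 library 0 to 7.

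The large minus small median log2 FC, with Polr2a among the large members, kept its sign under each alternative run, in both vector and both fraction comparisons. It moved beyond the spread with the trend removed, to 0.45 between the vectors in microglia (from 1.46), and to -0.52 in AAV-GFP (from -0.96) and -1.32 in AAV-A2A (from -3.05) between the fractions, and with a limit of 3 kb of exon in place of 1000 residues, to -0.56 in AAV-GFP. That limit gave -0.30 in astrocytes between the vectors, from -0.58. Upper-quartile scaling shifted the median log2 FC of all genes from -0.06 to 0.25 between the fractions in AAV-A2A, from 0.10 to 0.40 in the difference between vector effects and from -0.05 to -0.21 in microglia. It changed the fraction calls in AAV-A2A from 17 higher and 13 lower to 20 and 12. For the genes that the naming rule gave in each comparison, no called direction was reversed: 389 values stayed as they were, 15 lost and 8 gained a call and 11 moved, and with 1 library left out 292 stayed, 29 lost and 2 gained a call and 1 moved. Signs of members that no test called did change, as for 5 of the 11 small polymerase members in microglia with the trend removed. The cause of these changes was not tested. Depth was 33937067 counts or more per library, and with 3 libraries a group the spread between libraries set the precision.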
